A study of Homo sapiens with 30 samples.

Results

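The genes described here are 9 neuroendocrine and neuronal markers, ENO2, SYP, CHGA, CHGB, NTS, POU3F2, INSM1, NCAM1 and REST, chosen by name and found by Ensembl identifier among the 37843 genes of a count table of LNCaP cells. REST is a repressor of neuronal genes and is counted with the markers below. LNCaP is an established line of androgen-responsive prostate adenocarcinoma cells, and R1881 (metribolone) is a synthetic androgen that is slowly metabolised. The series addresses how prostate cancer cells respond differently to low and high androgen. Cells were grown from 130000 per well in hormone-depleted medium (RPMI 1640 with 8% charcoal-stripped serum) for 48 h and then received vehicle, or R1881 at 0.03, 0.06, 0.1 or 10 nM, for 24 h. Each of the 5 groups holds 3 RNA-seq libraries, numbered 2, 3 and 4, and all groups share the hormone-depleted medium. The series has 30 samples, of which the 15 VCaP samples were not analysed here.

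Neuroendocrine cells of the prostate store peptides and amines in dense-core granules, and their markers are granule proteins, vesicle proteins, neuronal enzymes and a set of neural transcription factors. REST is a zinc finger repressor of many neuronal genes outside the nervous system. It recruits the RCOR1 (CoREST) and SIN3 corepressors with their histone deacetylases and demethylase. Prostate adenocarcinoma can take on a neuroendocrine phenotype after androgen receptor signalling is withdrawn, and hormone-depleted LNCaP cells are a standard model in which ENO2 (neuron-specific enolase) is read as a marker. The model is 1 cell line, so its androgen response is that of these cells alone.

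The androgen acted in these libraries: KLK3, which encodes prostate-specific antigen, rose 37.6-fold between vehicle and 10 nM, and FKBP5 rose 42.2-fold (edgeR quasi-likelihood test, Benjamini-Hochberg adjusted p = 4.31e-17 and 2.97e-18). Library totals ran from 30666460 to 61199483 counts, and values below are counts per 1000000 (CPM) scaled by TMM factors, whose group mean went from 1.04 in vehicle to 0.902 at 10 nM. Mitochondrially encoded genes took 9.312 to 10.67% of counts in the 5 libraries numbered 3, 1 in each group, and 6.143 to 7.687% in the other 10. The summed level of 10 prostate luminal markers was 4800 to 4900 CPM in vehicle and 15400 to 15900 CPM at 10 nM. Markers of fibroblasts, leukocytes, endothelium, glia and neurons summed to 43.7 to 57.7 CPM in vehicle, 34 to 45.1 CPM at 0.1 nM and 21.4 to 27.8 CPM at 10 nM, mostly COL1A1 and VWF, while PTPRC, CD3E, CD68, PECAM1, GFAP and S100B had 2 to 9 counts each over all 15 libraries. Nothing in the labels says that libraries of a group came from separate cultures, so p-values measure only the spread between these libraries.

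LNCaP cells in this medium expressed only part of the marker set, and the granule markers CHGA and CHGB and the transcription factor INSM1 were close to 0. Of the 9 genes 5 passed the low-count filter and were tested: REST, ENO2, SYP, NTS and POU3F2. CHGA, CHGB, INSM1 and NCAM1 were too low to test, with 2, 32, 1 and 74 counts in all 15 libraries. Per kilobase of exon the vehicle levels were ordered REST (12.4 ± 0.684 CPM per kb, SD, n = 3), ENO2 (12.3 ± 0.715), NTS (0.617 ± 0.174), SYP (0.362 ± 0.0389), POU3F2 (0.116 ± 0.027), CHGB (0.0186 ± 0.00799) and NCAM1 (0.0143 ± 0.00448), with INSM1 and CHGA last at 1 count each in the group. The ranges of REST and ENO2 overlapped, as did those of CHGB and NCAM1, so neither pair can be ordered, whereas the lowest NTS library (0.428 CPM per kb) lay just above the highest SYP library (0.405 CPM per kb). At 10 nM the order of the upper genes was REST (14.1 ± 0.712 CPM per kb), ENO2 (4.25 ± 0.284), SYP (0.663 ± 0.0736), NTS (0.196 ± 0.079) and POU3F2 (0.0369 ± 0.0199), with no overlap between any neighbours among these 5 genes.

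The promoters of the 4 markers with the largest changes at 10 nM among the 5 that passed the filter are shown because ENO2, NTS and POU3F2 fell together while SYP rose; each runs from 250 bases before to 50 after the RefSeq start (GRCh38.p14), 5′ to 3′ on the gene's strand, in lower case, and capitals mark an AP-1 site. ENO2 is chr12:6914330-6914629 on the plus strand, NTS chr12:85874045-85874344 on the plus strand, POU3F2 chr6:98834324-98834623 on the plus strand and SYP chrX:49200144-49200443 on the minus strand.
ENO2: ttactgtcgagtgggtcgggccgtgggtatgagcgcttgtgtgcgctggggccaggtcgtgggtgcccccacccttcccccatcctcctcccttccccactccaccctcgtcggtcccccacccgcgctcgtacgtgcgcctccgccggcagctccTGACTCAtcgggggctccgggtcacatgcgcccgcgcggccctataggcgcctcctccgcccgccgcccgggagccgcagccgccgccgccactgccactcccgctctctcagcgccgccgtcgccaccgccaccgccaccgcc
NTS: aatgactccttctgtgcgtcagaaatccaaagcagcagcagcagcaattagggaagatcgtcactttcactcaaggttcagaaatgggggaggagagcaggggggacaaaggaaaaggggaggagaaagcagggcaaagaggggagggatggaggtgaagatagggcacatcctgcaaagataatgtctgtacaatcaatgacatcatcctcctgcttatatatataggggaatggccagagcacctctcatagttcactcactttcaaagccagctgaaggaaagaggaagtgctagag
POU3F2: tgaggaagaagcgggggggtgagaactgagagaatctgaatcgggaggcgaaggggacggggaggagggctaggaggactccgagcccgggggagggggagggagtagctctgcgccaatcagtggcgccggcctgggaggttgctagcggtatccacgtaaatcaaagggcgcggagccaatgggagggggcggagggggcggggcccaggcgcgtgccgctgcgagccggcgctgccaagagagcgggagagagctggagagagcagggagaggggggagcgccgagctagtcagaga
SYP: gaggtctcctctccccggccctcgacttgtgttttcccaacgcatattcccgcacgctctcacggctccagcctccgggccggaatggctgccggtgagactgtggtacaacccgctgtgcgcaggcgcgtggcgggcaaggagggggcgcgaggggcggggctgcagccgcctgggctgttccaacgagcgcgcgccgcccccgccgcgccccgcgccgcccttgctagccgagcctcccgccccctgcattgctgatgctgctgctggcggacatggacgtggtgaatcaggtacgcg

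The NTS window was 48.3% G and C, and the ENO2, POU3F2 and SYP windows 75, 68.3 and 71.3%, against a median of 58.7% over 35116 RefSeq promoters. Windows for 6 of the 9 markers were matched, 7 windows in all since REST has 2 starts. Motifs were searched as written and as their reverse complement. The AP-1 site TGACTCA was found in ENO2 at -94 to -88 from the start and in the second REST window, on the other strand, at -211 to -205; 4.95% of all promoters hold it. The cAMP response element TGACGTCA, in 1.85% of promoters, was found in CHGA at -54 to -47. The androgen receptor half-site AGAACA, in 14.8% of promoters, was in none of the 7 windows. Neither were the left and right parts of the REST binding element, TTCAGCACC and GGACAGCGC, which 0.376% and 0.581% of promoters hold. These are matches of letters, and no binding was measured; the motifs do not overlap each other in these windows.

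**Figure D1:**
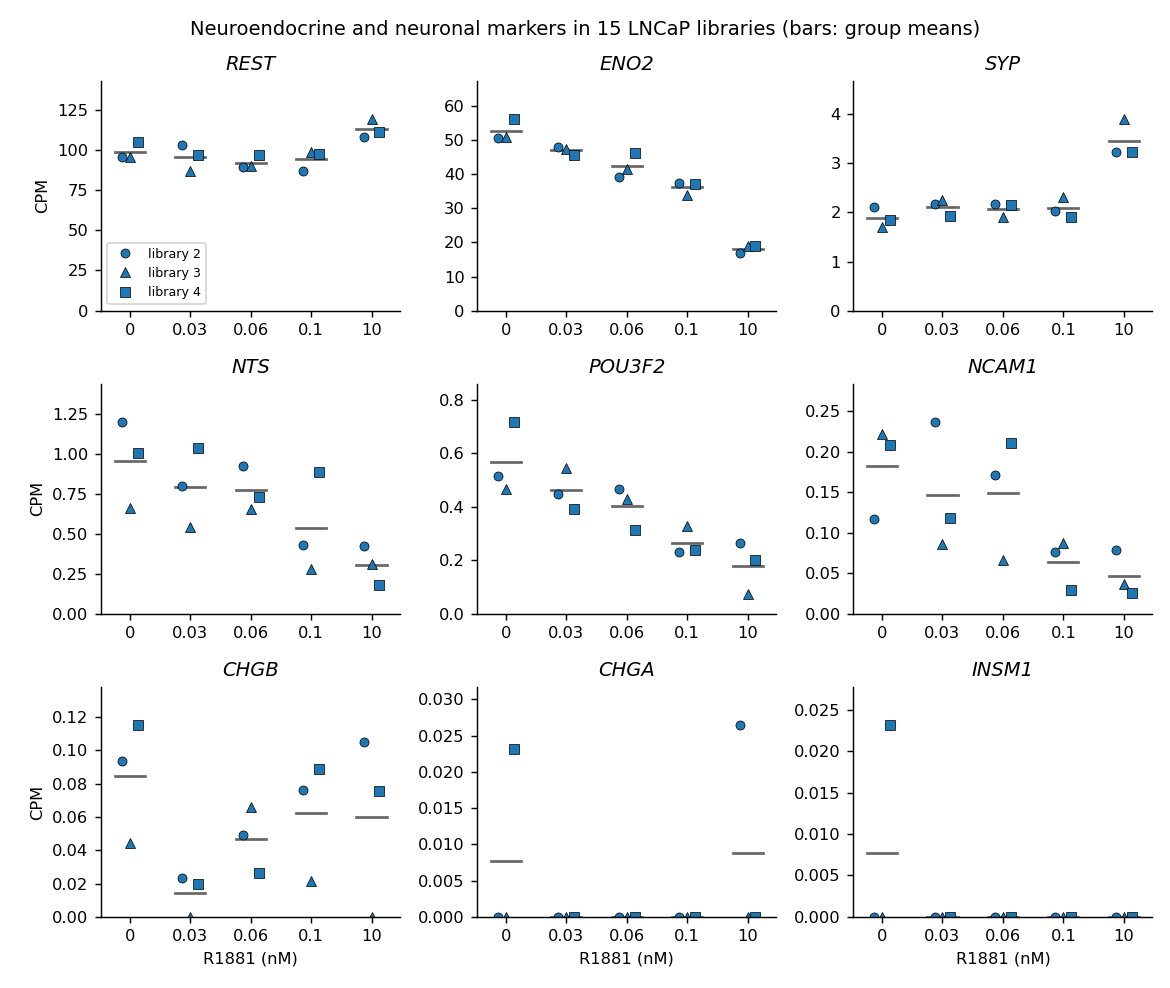
CPM of each marker (vertical axes, each from 0, each with its own scale) in the 15 libraries by R1881 dose in nM (0 is vehicle; doses are spaced evenly, not to scale); symbols give the library number and bars the group mean. ENO2 falls from 52.6 to 18.2 CPM, SYP stands apart only at 10 nM, and CHGA and INSM1 are single counts.

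ENO2 fell from 0.06 nM upwards, and its group mean was lower at each higher dose. ENO2 (ENSG00000111674.9, chr12:6913745-6923698, plus strand, GENCODE 29 on GRCh38) encodes enolase 2, the neuronal isoform of a glycolytic enzyme. Its 3 vehicle libraries, in the order 2, 3 and 4, stood at 50.7, 50.9 and 56.1 CPM, and the 0.03 nM libraries at 48.1, 47.4 and 45.5 CPM. At 0.06 nM they were 39.3, 41.6 and 46.3 CPM, at 0.1 nM 37.5, 34 and 37 CPM, and at 10 nM 16.8, 19 and 18.8 CPM. Every treated library was below every vehicle library, and only the 0.03 and 0.06 nM groups overlapped each other among neighbouring doses. Group means were 52.6 ± 3.04, 47 ± 1.33, 42.4 ± 3.56, 36.2 ± 1.9 and 18.2 ± 1.2 CPM (SD, n = 3).

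Against vehicle, the log2 fold change of ENO2 was -0.16 ± 0.067 (SE) at 0.03 nM (adjusted p = 0.156), -0.31 ± 0.067 at 0.06 nM (adjusted p = 0.00173), -0.54 ± 0.067 at 0.1 nM (adjusted p = 4.29e-06) and -1.53 ± 0.07 at 10 nM (adjusted p = 2.68e-12), all by edgeR's quasi-likelihood test with Benjamini-Hochberg adjustment over 18403 genes. ENO2 was 1.24-fold lower at 0.06 nM, 1.46-fold lower at 0.1 nM and 2.89-fold lower at 10 nM. Between 0.1 and 10 nM it fell another 1.98-fold (log2 change -0.99 ± 0.07, adjusted p = 4.82e-09), and the smaller steps from 0.03 to 0.06 nM and from 0.06 to 0.1 nM missed the threshold (log2 change -0.15 and -0.23, adjusted p = 0.221 and 0.143). In bulk RNA, fewer cells of a type and less RNA per cell cannot be told apart. The first bases of ENO2 overlap LRRC23 on the same strand, without overlap of their exons.

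At 10 nM ENO1 was higher, opposite to ENO2, and ENO3 was slightly lower. ENO1, the widely expressed enolase, had a mean of 903 CPM in vehicle, 1140 at 0.1 nM and 1110 at 10 nM, and rose 1.23-fold at 10 nM (adjusted p = 8.6e-05); when scaled by library totals its log2 change was 0.09 and missed the threshold. ENO3, the muscle enolase, went from 17.9 ± 0.837 to 14.9 ± 1.72 CPM and fell 1.2-fold (adjusted p = 0.0235), a call lost without the vehicle library numbered 2 (log2 change -0.24), either the 10 nM library numbered 2 or that numbered 3 (-0.22 and -0.24), or all libraries numbered 3 (-0.22). Per kilobase, ENO1 stood at 171 and ENO2 at 12.3 in vehicle (CPM per kb), and at 211 and 4.25 at 10 nM.

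NTS and POU3F2 also fell at 10 nM, from much lower levels. NTS (ENSG00000133636.11, chr12:85874295-85882992, plus strand) encodes neurotensin, a secreted peptide that acts on gut, brain and some tumour cells. In the order 2, 3 and 4 its libraries held 1.2, 0.666 and 1.01 CPM in vehicle, 0.802, 0.543 and 1.04 at 0.03 nM, and 0.929, 0.658 and 0.734 at 0.06 nM. They held 0.433, 0.283 and 0.89 CPM at 0.1 nM and 0.422, 0.314 and 0.177 CPM at 10 nM. The low-dose groups overlapped vehicle and the 10 nM group did not. The library numbered 3 was the lowest of its group in vehicle and at every low dose.

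NTS was 3.13-fold lower at 10 nM than in vehicle (0.304 ± 0.123 against 0.959 ± 0.269 CPM; log2 change -1.64 ± 0.39, edgeR adjusted p = 0.00144). At 0.1 nM the log2 change was -0.89 ± 0.36, just outside the threshold (edgeR adjusted p = 0.0581; 0.00667 to 0.256 over its 23 alternatives), and without the 0.1 nM library numbered 4 it was -1.43 and passed (adjusted p = 0.00667), as it did without the vehicle library numbered 3 (-1.09, adjusted p = 0.0306). Changes of -0.24 and -0.29 at 0.03 and 0.06 nM missed it. Neurotensin's receptors NTSR1 and NTSR2 had 13 and 19 counts in all libraries, whereas SORT1 (sortilin, a sorting receptor that also binds neurotensin) had 60.4 CPM in vehicle and fell 1.15-fold at 10 nM (adjusted p = 0.0147), a call lost without the vehicle library numbered 2 or 4 or the 10 nM library numbered 3 (log2 change -0.18, -0.15 and -0.16).

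POU3F2 (ENSG00000184486.10, chr6:98834592-98839470, plus strand) encodes BRN2, a neural POU-domain transcription factor. Its libraries held 0.516, 0.466 and 0.715 CPM in vehicle, 0.448, 0.543 and 0.393 at 0.03 nM, 0.465, 0.428 and 0.314 at 0.06 nM, 0.229, 0.327 and 0.237 at 0.1 nM and 0.264, 0.074 and 0.202 at 10 nM, from 4 to 31 counts each. The 0.06, 0.1 and 10 nM groups lay below all vehicle libraries, the first by 0.465 against 0.466 CPM. The log2 change was -1.07 ± 0.34 at 0.1 nM (2.1-fold lower, edgeR adjusted p = 0.0163) and -1.72 ± 0.36 at 10 nM (3.29-fold lower, adjusted p = 0.000525). The 0.1 nM call rests on single libraries: adjusted p was 0.0826 without the vehicle library numbered 4, 0.0625 without the 0.1 nM library numbered 2 and 0.0529 without that numbered 4 (0.00812 to 0.0826 over 22 alternatives). The step from 0.1 to 10 nM (-0.65 ± 0.41, adjusted p = 0.234) missed the threshold, and its 95% interval, -1.52 to 0.22, holds both no change and a large fall.

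SYP was higher at 10 nM than in vehicle or at 0.1 nM, and was called at no lower dose. SYP (ENSG00000102003.11, chrX:49187804-49200259, minus strand) encodes synaptophysin, a membrane protein of synaptic-like vesicles and a standard histological marker. Its libraries held 2.11, 1.71 and 1.85 CPM in vehicle, 2.17, 2.26 and 1.93 at 0.03 nM, 2.18, 1.91 and 2.15 at 0.06 nM, 2.04, 2.31 and 1.9 at 0.1 nM and 3.24, 3.9 and 3.23 at 10 nM. The 10 nM libraries were above all 12 others, and the remaining groups overlapped. SYP was 1.84-fold higher at 10 nM than in vehicle (log2 change 0.88 ± 0.14, edgeR adjusted p = 2.26e-05) and 1.66-fold higher than at 0.1 nM (0.73 ± 0.14, adjusted p = 0.000284).

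At 0.03, 0.06 and 0.1 nM the change of SYP against vehicle was 0.16, 0.14 and 0.15 on the log2 scale, and the 95% interval at 0.1 nM ran from -10.1% to 36.6%. The antisense gene SYP-AS1 had 6 counts in all libraries against 1457 for SYP. SYPL1, the related synaptophysin-like protein found in many tissues, stood at 113 ± 3.11 CPM in vehicle and 144 ± 12.3 at 10 nM, a rise of 1.27-fold (adjusted p = 0.000193) that missed the threshold when libraries were scaled by their totals (log2 change 0.13, adjusted p = 0.107).

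**Figure D2:**
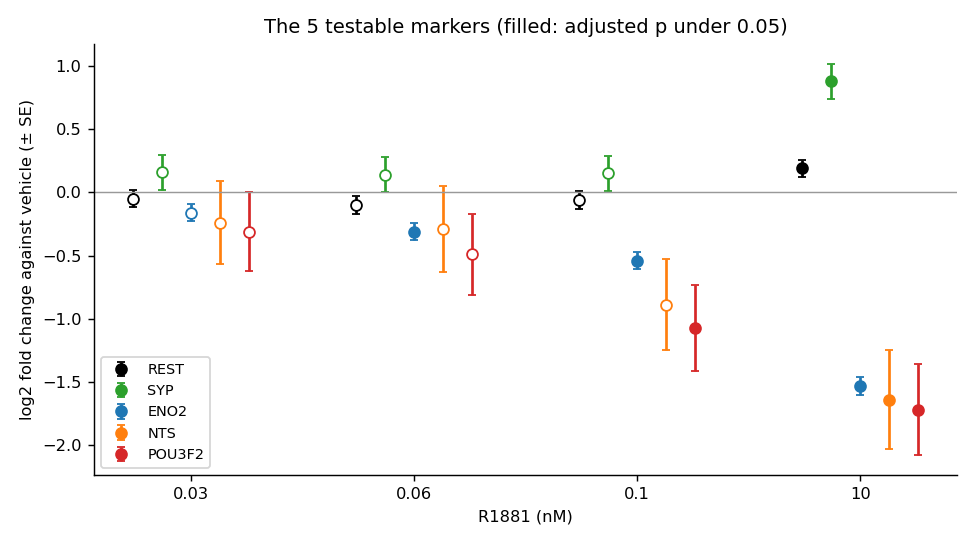
Log2 fold change against vehicle (vertical axis, with the standard error of the fit) of the 5 markers tested, at each R1881 dose in nM on evenly spaced positions; filled points passed the threshold. ENO2, NTS and POU3F2 reach -1.53, -1.64 and -1.72 at 10 nM, where SYP reaches 0.88 and REST 0.19.

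REST was slightly higher at 10 nM, and was called at no lower dose. REST (ENSG00000084093.19, chr4:56907876-56966678, plus strand) had libraries at 95.3, 95.8 and 105 CPM in vehicle, 103, 86.6 and 96.7 at 0.03 nM, 89.3, 90.2 and 96.8 at 0.06 nM, 87, 98.8 and 97.6 at 0.1 nM and 108, 119 and 111 CPM at 10 nM. The 10 nM libraries were above all others, the nearest being a vehicle library, and the remaining groups overlapped. REST was 1.14-fold higher at 10 nM than in vehicle (log2 change 0.19 ± 0.068, 95% interval 3.63 to 26.3% higher, edgeR adjusted p = 0.0206) and 1.19-fold higher than at 0.1 nM (0.26 ± 0.068, adjusted p = 0.00562). At the 3 low doses the 95% intervals allow changes of -15.4 to 7%.

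The direction of REST at 10 nM depends on the scaling. With libraries scaled by their total counts, which moves the median of all genes by -0.21 in this comparison, its log2 change was -0.02 (adjusted p = 0.869), and against 0.1 nM it was 0.1 (adjusted p = 0.286). The call against vehicle was also lost without the vehicle library numbered 2 or 3 (adjusted p = 0.0767 and 0.0752), without the 10 nM library numbered 3 (0.111), without all 5 libraries numbered 3 (0.11) and with a stricter filter (0.0575), over a range of 0.00576 to 0.869. The last exons of REST overlap NOA1 on the opposite strand (41965 counts in all libraries); the strand setting of the counting is not given in the sources used here, so reads of the shared stretch cannot be assigned with certainty.

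The 4 markers below the filter held few or no counts at any dose. CHGA and CHGB (ENSG00000100604.13, chr14:92923080-92935293, and ENSG00000089199.10, chr20:5911430-5925361, both plus strand) encode the granins chromogranin A and secretogranin 1, matrix proteins of dense-core granules. CHGA had 1 count in vehicle, 1 at 10 nM and 0 elsewhere, where 0 counts in a group give an exact 95% Poisson upper limit of 3.69 counts, or 0.0288 to 0.0337 CPM. CHGB had 11, 2, 5, 7 and 7 counts in the 5 groups in order of dose, with 4, 2 and 5 in the vehicle libraries and 4, 0 and 3 at 10 nM. INSM1 (ENSG00000173404.5, chr20:20368121-20370949, plus strand), a zinc finger factor of endocrine differentiation, had 1 count, in vehicle. In edgeR fits without the low-count filter CHGB at 0.03 nM against vehicle had a log2 change of -2.24 (unadjusted p = 0.0393, adjusted p = 0.349), and no difference for these 3 genes passed the threshold.

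NCAM1 (ENSG00000149294.17, chr11:112961247-113278436, plus strand) encodes the neural cell adhesion molecule, or CD56. It had 24, 19, 17, 8 and 6 counts in the 5 groups in order of dose, or 5, 10 and 9 in the vehicle libraries and 3, 2 and 1 at 10 nM. The pooled level was 0.183 CPM in vehicle (exact 95% Poisson interval 0.117 to 0.272) and 0.0456 at 10 nM (0.0167 to 0.0992), intervals that cover counting error only. In edgeR fits without the low-count filter, over 37843 genes, the log2 change was -1.42 at 0.1 nM (adjusted p = 0.132) and -1.92 ± 0.69 at 10 nM (adjusted p = 0.0215). Leaving out the filter also moved SYT4, a vesicle gene described below, from edgeR adjusted p = 0.221 to 5.44e-07 at 10 nM. Its log2 changes were 0.34 and 0.35, so a pass in that fit alone is not counted as a call for NCAM1. Antisense NCAM1-AS1 had 7 counts. Its paralog NCAM2 was the most abundant neuronal surface gene of those examined, at 910 ± 70 CPM in vehicle, 862 at 0.03 nM, 786 at 0.06 nM, 763 at 0.1 nM and 740 ± 88.3 CPM at 10 nM. Per kilobase that was 109 for NCAM2 against 0.0143 for NCAM1 in vehicle. NCAM2 fell 1.23-fold at 10 nM (adjusted p = 0.00712), with libraries at 692, 842 and 685 CPM that overlapped vehicle at 829, 953 and 947 CPM.

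**Figure D3:**
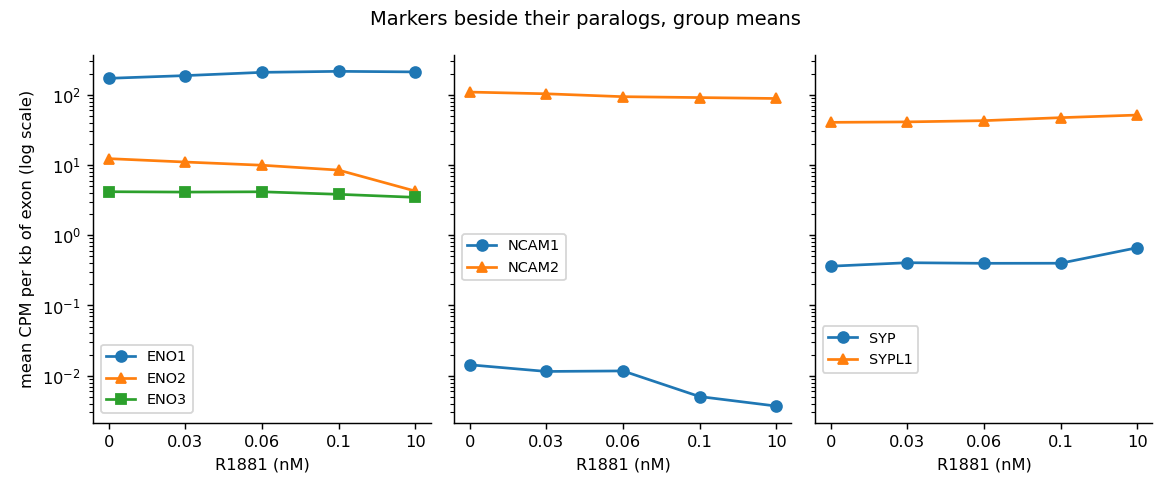
Mean CPM per kb of exon (log axis) of ENO2, NCAM1 and SYP beside their paralogs, by R1881 dose in nM at evenly spaced positions, with 3 libraries a point. ENO1 and NCAM2 lie far above ENO2 and NCAM1 at every dose, and ENO2 comes close to ENO3 only at 10 nM (4.25 against 3.46).

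More markers passed the threshold at higher doses, as did more genes in the whole table. Against vehicle, none of the 5 tested markers was called at 0.03 nM, where 5.47% of genes were called higher and 3.16% lower. At 0.06 nM 1 was lower (ENO2), with 16.9% of genes higher and 14.3% lower. At 0.1 nM 2 were lower (ENO2 and POU3F2), with 21.5% higher and 20.6% lower. At 10 nM 3 were lower (ENO2, NTS and POU3F2) and 2 higher (SYP and the repressor REST). There 29.3% of genes were higher and 28.3% lower, so that a call by itself was common. Scaled by library totals, 27.8% of the called genes were higher in place of 50.9%. From 0.03 to 0.06 nM none was called (4.2% of genes higher, 2.06% lower), nor from 0.06 to 0.1 nM (1.07% and 0.293%). At an unadjusted p under 0.05 ENO2 alone of the 5 passed in each of these 3 comparisons without a call, as did 4016, 3774 and 1825 of the 18403 genes, and DESeq2 called none of the 5 there. From 0.1 to 10 nM SYP and REST were higher and ENO2 lower, with 20.6% of genes higher and 19.5% lower. Comparisons against vehicle share the vehicle libraries and are not independent of each other. The median log2 change of the 5 at 10 nM against vehicle was -1.53, beside -0.01 over all 18403 genes. That median is the value of ENO2 alone, and SYP and REST changed by 0.88 and 0.19, so it does not describe a common fall.

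Most granule and vesicle genes that could be tested did not pass the threshold at 10 nM. Of 16 listed, 8 were tested, 1 was higher and 2 lower than in vehicle, beside 29.3% of all genes higher and 28.3% lower, and the median log2 change was 0.14. VGF, a granin-like peptide precursor, rose from 0.06 nM upwards, from 1.08, 1.62 and 1.04 CPM in vehicle to 4.1, 3.53 and 3.38 at 0.1 nM and 6.11, 6.53 and 6.91 CPM at 10 nM, 5.21-fold in all (log2 change 2.38 ± 0.18, adjusted p = 3.17e-09). SYT1, a calcium sensor of vesicle fusion, fell 4.16-fold, from 0.516 ± 0.17 to 0.124 ± 0.0673 CPM (adjusted p = 0.000191). PCSK1N (proSAAS) fell 1.17-fold, a call lost without the vehicle library numbered 4 (log2 change -0.21). RAB3A, a vesicle GTPase, fell 1.12-fold between 0.1 and 10 nM, a call lost without the 0.1 nM library numbered 2 or 4 (-0.13 and -0.17). CPE, the prohormone-processing carboxypeptidase E, was expressed at 118 ± 5.57 CPM in vehicle and 122 ± 8.28 at 10 nM (log2 change 0.05, adjusted p = 0.628; -0.16 and lower when scaled by library totals), and the prohormone convertase PCSK1 had 1 count in all. SYT4, a vesicle synaptotagmin named after its values were seen, held 57.3, 95.1 and 100 CPM in vehicle and 76.8, 127 and 116 CPM at 10 nM, groups that overlapped (log2 change 0.34, adjusted p = 0.221), and without the low-count filter it passed (0.35, adjusted p = 5.44e-07; 5.44e-07 to 0.67 over its alternatives).

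Among neuroendocrine transcription factors, 5 of 15 listed were tested, and at 10 nM 3 were lower and 1 higher, beside 29.3% of all genes higher and 28.3% lower. SOX2 and MYCN, drivers of small-cell and neuroendocrine tumours, had 1 count each in all 15 libraries. MYT1, a neural zinc finger factor, fell at every dose, from 19.2 ± 0.683 CPM in vehicle to 10.1 at 0.1 nM and 5.56 ± 0.16 at 10 nM (3.46-fold, adjusted p = 1.07e-11). SOX11, a factor of neural progenitors, stood at 8.86, 8.43 and 7.98 CPM in vehicle and at 2.27, 2.26 and 2.32 CPM at 10 nM, a 3.69-fold fall of which 2.69-fold lay between 0.1 and 10 nM. POU2F3, a POU factor of tuft cells, fell 2.73-fold. HES6, a member of the HES family that promotes neural differentiation, went the other way, from 29.6 ± 1.11 to 117 ± 35.1 CPM (3.93-fold higher, adjusted p = 1.35e-08). ONECUT2 held 30.4 ± 2.45 CPM in vehicle and 31.7 ± 1.14 at 10 nM (adjusted p = 0.499).

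Of 16 neuronal cytoskeleton and surface genes 9 were tested, and at 10 nM 2 were higher and 5 lower, beside 29.3% of all genes higher and 28.3% lower, with a median log2 change of -0.3. MAP2, a dendritic microtubule protein, rose from 16.1 ± 3.53 CPM in vehicle to 23.8 at 0.03 nM, 34.2 at 0.06 nM and 41.8 at 0.1 nM, and stood at 41.3 ± 4.15 CPM at 10 nM (2.57-fold above vehicle, adjusted p = 1.58e-07; 0.988 times the 0.1 nM level, adjusted p = 0.932). UCHL1, a neuronal deubiquitinating enzyme, rose 4.05-fold from 0.299 ± 0.128 CPM. RTN1, a reticulon of neuroendocrine cells, stood at 23.6 ± 0.867 CPM in vehicle, 27.4 at 0.03 nM (1.16-fold higher, adjusted p = 0.0385), 26 at 0.06 nM (adjusted p = 0.0974) and 22.5 at 0.1 nM. It was 15.8 ± 0.257 CPM at 10 nM, 1.43-fold below 0.1 nM (adjusted p = 3.73e-06). KIF1A, the axonal kinesin of synaptic vesicle precursors, likewise went from 227 CPM at 0.1 nM to 178 CPM at 10 nM (1.28-fold lower, adjusted p = 0.000182). TUBB3 and STMN3 also fell at 10 nM, by 1.7-fold and 1.28-fold, calls lost for TUBB3 without the vehicle library numbered 2 or 4 (log2 change -0.64 and -0.62) and for STMN3 without the 10 nM library numbered 2 (-0.26).

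**Figure D4:**
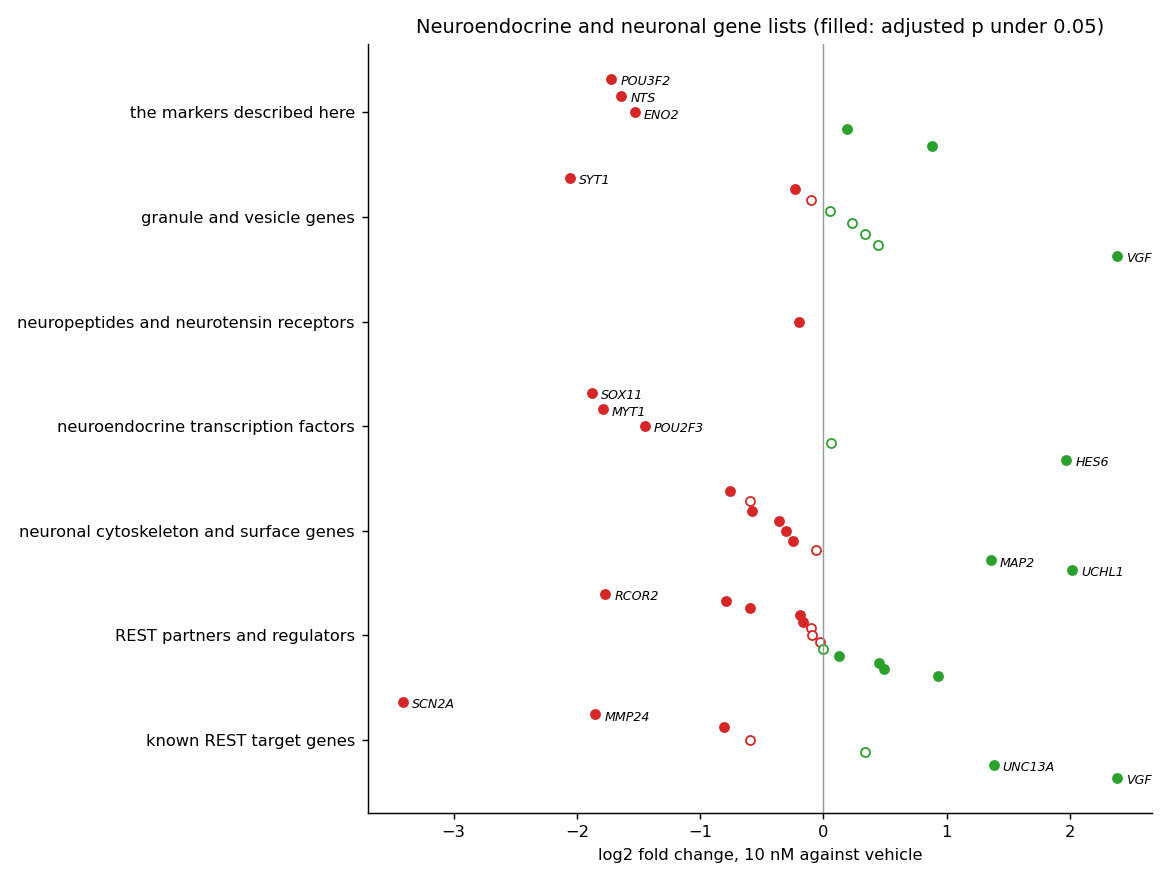
Log2 fold change at 10 nM against vehicle (horizontal axis) of each tested gene in the markers and 6 related lists (rows; vertical position within a row only separates points); filled points passed the threshold, and changes beyond 1.2 in size are labelled. Each list but the neuropeptides, with 1 gene tested, has points on both sides of 0, from SCN2A at -3.41 to VGF at 2.38.

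Of 14 listed partners and regulators of REST 13 were tested, and 4 were higher and 5 lower at 10 nM than in vehicle, beside 29.3% of all genes higher and 28.3% lower, shares near those of the whole table; the median log2 change was -0.09. HMG20B (BRAF35), a subunit of the CoREST complex, rose from 178, 186 and 192 CPM in vehicle to 342, 347 and 368 CPM at 10 nM (1.9-fold, adjusted p = 5.36e-11). RCOR2, a CoREST paralog, fell 3.42-fold from 3.91 ± 0.795 to 1.14 ± 0.135 CPM (adjusted p = 1.6e-08), and PHF21A (BHC80), a reader of unmodified histone H3 in the same complex, fell 1.73-fold (adjusted p = 1.65e-10). USP7 and SIN3A rose 1.41-fold and 1.37-fold, EHMT2 (G9a) fell 1.52-fold, and HDAC1 and BTRC fell 1.13-fold and 1.14-fold; the BTRC call was lost without the vehicle library numbered 4 (log2 change -0.12). HDAC2 was 1.09-fold higher (adjusted p = 0.0438), a call lost when any of several single libraries was left out, among them the vehicle library numbered 3 (log2 change 0.07) and the 10 nM library numbered 2 (0.09), and its log2 change was -0.08 when scaled by library totals. SRRM4, the splicing factor that inactivates REST in neurons, had 20 counts in all libraries.

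Of 15 known REST target genes 7 were tested, and 2 were higher and 3 lower at 10 nM, beside 29.3% of all genes higher and 28.3% lower; the median log2 change was -0.6. VGF, described above, and UNC13A, a vesicle priming factor, rose, the latter 2.61-fold from 1.01 ± 0.172 to 2.65 ± 0.306 CPM. MMP24, a membrane-type metalloproteinase of neurons, fell 3.61-fold from 7.1 ± 0.461 to 1.94 ± 0.4 CPM (adjusted p = 3.08e-09). SCN2A, a neuronal sodium channel, fell from 0.352, 0.422 and 0.277 CPM to 0.0527, 0.037 and 0 CPM (log2 change -3.41 ± 0.53, adjusted p = 2.5e-05), and GRIN1, a glutamate receptor subunit, fell 1.75-fold, a call lost without the 5 libraries numbered 3 (log2 change -0.62). The lists of REST targets and of granule genes share VGF and SYT4, both tested, and SNAP25 and SYN1, which were too low to test.

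The genes whose profiles over the 15 libraries were most like those of the markers were found by Pearson correlation of log2 CPM among 13121 genes; the libraries share their dose groups, so these values describe dose profiles and carry no test. For ENO2 they were COLEC12 (r = 0.992, from 75.8 CPM in vehicle to 18.8 at 10 nM), SLC9A3-AS1 (0.991, 38.5 to 10.5 CPM) and ACKR3 (0.991, 147 to 18.3 CPM). For SYP they were MIR193BHG (0.957, 5.58 to 12.3 CPM), CDC42 (0.955, 115 to 168 CPM) and SLC31A2 (0.951, 4.28 to 7.52 CPM). For REST they were ZNF148 (0.952, 80 to 95 CPM), NORAD (0.948, 536 to 607 CPM) and EBLN3P (0.941, 77.2 to 94.5 CPM). NTS and POU3F2 lie below the mean of 1 CPM set for this search.

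At 10 nM the tested markers of other cell types moved in the same direction as ENO2, NTS and POU3F2. Of 13 such markers, 4 were tested, and all 4 were lower at 10 nM than in vehicle, beside 28.3% of all genes lower and 29.3% higher. They were COL1A1 (1.8-fold), VWF (2.93-fold), PDGFRB (3.16-fold) and LUM (5.37-fold). LUM had only 0, 4 and 6 counts in the 10 nM libraries. Mean VWF was 23.6 CPM at 0.03 nM against 18.7 CPM in vehicle, without a call. Of these 4, COL1A1 alone was lower at 0.1 nM (1.49-fold, adjusted p = 0.00718), where ENO2 and POU3F2 were already lower. The part of this shift in the falls of the markers was not tested. The 5 libraries numbered 3, which differ in mitochondrial share, are spread over the groups, and without them the changes at 10 nM were -1.59 for ENO2, -1.89 for NTS, -1.4 for POU3F2 and 0.71 for SYP (log2, edgeR adjusted p = 2.42e-11, 0.000614, 0.00597 and 0.00142).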

How the data were processed

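Libraries were made with the KAPA Stranded mRNA-Seq kit, as the labels' protocols state. The submitters' processing notes name GRCh38, STAR 2.7.8a, Trimmomatic 0.39 and DESeq2 1.36.0; the counter, annotation release and strand setting are not given in the sources used here. The deposited values are raw counts per Ensembl gene. Groups came from the labels, and the VCaP table was not used because its columns match no label. CPM are counts over totals times TMM factors. Tests used edgeR 4.0.16 in R 4.3.3, with filterByExpr by group (18403 genes) and a quasi-likelihood model of all 5 groups (15 libraries). They were two-sided, with Benjamini-Hochberg adjusted p under 0.05. The fit was checked on simulated libraries drawn independently, with few genes changed. That check does not cover the choice of scaling or links between same-numbered libraries. Intervals are at 95%: those of fold changes come from the edgeR fit and include the spread between libraries, and the Poisson intervals of levels cover counting error only. Positions and exon lengths are from GENCODE 29, promoters from RefSeq. The alternatives were other scalings, DESeq2 1.42.0, other filters, the replicate block, fewer libraries and leaving out each library. The markers and lists were chosen with earlier results of these data known. Named genes were the 9 markers, KLK3, FKBP5 and TMPRSS2, and up to 2 genes per list with the smallest p at 10 nM against vehicle and against 0.1 nM; the other genes named from the lists were chosen after their values were seen. Listed genes that are not named enter the counts of their list; 1 gene is not reported here. Listed genes without a row in the table were not analysed here.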

Additional observations from a re-analysis of the deposited data

How the results depend on the processing

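Of 798 results for the tested markers under up to 23 alternatives per comparison, 782 kept their direction and side of the threshold or passed in neither setting (7 of these with another sign), 9 lost the call, 6 gained it and 1 reversed. With library totals in place of TMM the change at 10 nM against vehicle reversed for REST (-0.02), CPE (-0.16) and HDAC2 (-0.08), and the share of called genes that were higher went from 50.9 to 27.8% at 10 nM and from 51.3 to 26.5% for 10 against 0.1 nM; it went from 67.1 to 54.4% for 0.06 against 0.03 nM. With the stricter filter, which leaves POU3F2 untested, 3 markers were called at 10 nM. Leaving out 1 library gave 1 to 3 markers called at 0.1 nM and 4 to 5 at 10 nM against vehicle. Without a filter NTS passed at 0.1 nM (adjusted p = 0.0113), as with the stricter filter (0.0468) and without the vehicle library numbered 3 (0.0306). The cause of these changes was not tested.

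With the replicate number as a block, 1 marker was called between 0.06 and 0.1 nM (ENO2, -0.23, adjusted p = 0.0227; 0.0227 to 0.546 over its alternatives) and NTS passed at 0.1 nM (adjusted p = 0.017); it changed no other marker call. It also called SYT4 higher at 10 nM (0.35, adjusted p = 1.12e-05; 5.44e-07 to 0.67 over its alternatives), a gene of the granule and REST target lists. Of 30 same-numbered pairs of libraries, 23 had deviations correlated over 0.1 (-0.0138 to 0.315). All 15 libraries correlated best with their own number. The column names also order the libraries by this number. Neither they nor the labels say what libraries of the same number share, so the block was kept as an alternative. The main tests leave this pairing out. The block moved the genes called from 1588 to 3195 at 0.03 nM, from 1152 to 2926 for 0.06 against 0.03 nM and from 251 to 899 for 0.1 against 0.06 nM. Other counts that moved by over 1.5 times were 1010 with only the compared libraries and 979 without the vehicle library numbered 4 (0.03 nM), 1949 without the libraries numbered 3 and 434 to 674 without the 0.03 or 0.06 nM library numbered 2 or 4 (0.06 against 0.03 nM), and 388 with DESeq2, 501 with no filter, 407 without the libraries numbered 3 and 106 to 140 without the 0.06 nM library numbered 2 or 4 or the 0.1 nM library numbered 3 or 4 (0.1 against 0.06 nM). CHGA, CHGB, INSM1 and NCAM1, with 2, 32, 1 and 74 counts in all 15 libraries, stayed below the low-count filter of the main tests. Whether deeper sequencing would change this was not tested.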
